A study of Mus musculus with 20 samples.

Results

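Tcf15, Meox2 and 6 genes of capillary fatty acid uptake were followed in the plantaris muscle of old mice. They are 8 of the 22660 genes in the count table. Tcf15 was chosen by its interaction of treatment and overload in these same libraries, so its values in that contrast and in the group differences that make it up are given as a description with no test. Meox2 was added as its partner, and Cd36, Fabp4, Fabp5, Lpl, Gpihbp1 and Pparg as genes of endothelial lipid uptake. The study asked whether a senolytic cocktail, given to remove senescent cells, changes muscle growth after mechanical overload (MOV). Total RNA from whole plantaris was sequenced in 20 male C57BL/6J mice, labelled as 2 years old and with no transgene named, in 4 groups of 5 mice. In the MOV groups, part of the gastrocnemius and soleus was cut away on both sides so that the plantaris carried more load, and in the sham groups the skin alone was opened. Mice received by gavage either vehicle or D + Q, which is dasatinib (a kinase inhibitor) at 5 mg/kg with quercetin (a plant flavonol) at 50 mg/kg.

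The groups are therefore vehicle or D + Q with sham surgery and vehicle or D + Q with MOV, all collected 14 days after surgery. Per the sample labels and the study's text, gavage was on days 7 and 10 in sham and MOV mice alike. The series design text alone gives day 14 for the second gavage of sham mice, and if that held, the interval from the last dose to collection could not be told apart from the surgery. Total counts per mouse ran from 17887532 to 26234518. Tcf15 lies at chr2:151985474-151991034 and Meox2 at chr12:37158533-37229533 (GRCm39, both on the + strand). All 8 genes passed the count minimum (10 counts in 5 mice) in each of the 6 fits. Levels are given as CPM (counts scaled to a fixed library total), with library totals corrected by the trimmed mean of M-values (TMM), and changes as log2 fold changes ± standard error (SE).

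Tcf15 (also called paraxis) is a basic helix-loop-helix transcription factor, and Meox2 is a homeobox transcription factor. The pair is known as a heterodimer in the capillary endothelium of heart and skeletal muscle, where it drives genes for the uptake and transport of fatty acids. In that route, lipoprotein lipase (Lpl), made largely by muscle fibres and fat cells, is carried to the capillary lumen by Gpihbp1 and releases fatty acids from lipoproteins. Cd36 takes them up, Fabp4 and Fabp5 carry them through the endothelial cell, and Pparg is a nuclear receptor that controls several of these genes.

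Of the 20 libraries, vehicle MOV replicates 2 and 4 stood apart. Over 15700 genes their log2 CPM had a mean Pearson r of 0.975 with the rest of their group for each, against 0.979 to 0.984 in the other 18 libraries. Macrophage markers were lowest of the vehicle MOV group in replicate 2 and highest in replicate 4, with means of 4.15 and 5.59 log2 CPM. Fold changes of the members with overload in vehicle mice are given with and without each of these mice. Each group enters more than 1 comparison, so the comparisons share mice and are set side by side.

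In CPM, Tcf15 took opposite directions with overload in the 2 treatments. In vehicle sham mice it was at 6.90, 5.64, 7.93, 6.46 and 6.12 CPM, and in D + Q sham mice at 11.9, 8.40, 10.1, 8.64 and 11.6 CPM. Every D + Q sham mouse thus lay above every vehicle sham mouse. In vehicle MOV mice Tcf15 was at 8.55, 8.81, 9.79, 9.67 and 8.95 CPM, and in D + Q MOV mice at 6.37, 6.53, 6.79, 6.20 and 5.40 CPM. Every D + Q MOV mouse lay below every vehicle MOV mouse. Mean levels, from high to low, were 10.1 ± 1.61 in D + Q sham, 9.15 ± 0.55 in vehicle MOV, 6.61 ± 0.87 in vehicle sham and 6.26 ± 0.53 CPM in D + Q MOV (SD, n = 5). The upper pair overlapped one another, as did the lower pair, and no mouse of the upper pair came down to the level of the lower pair.

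**Figure D1:**
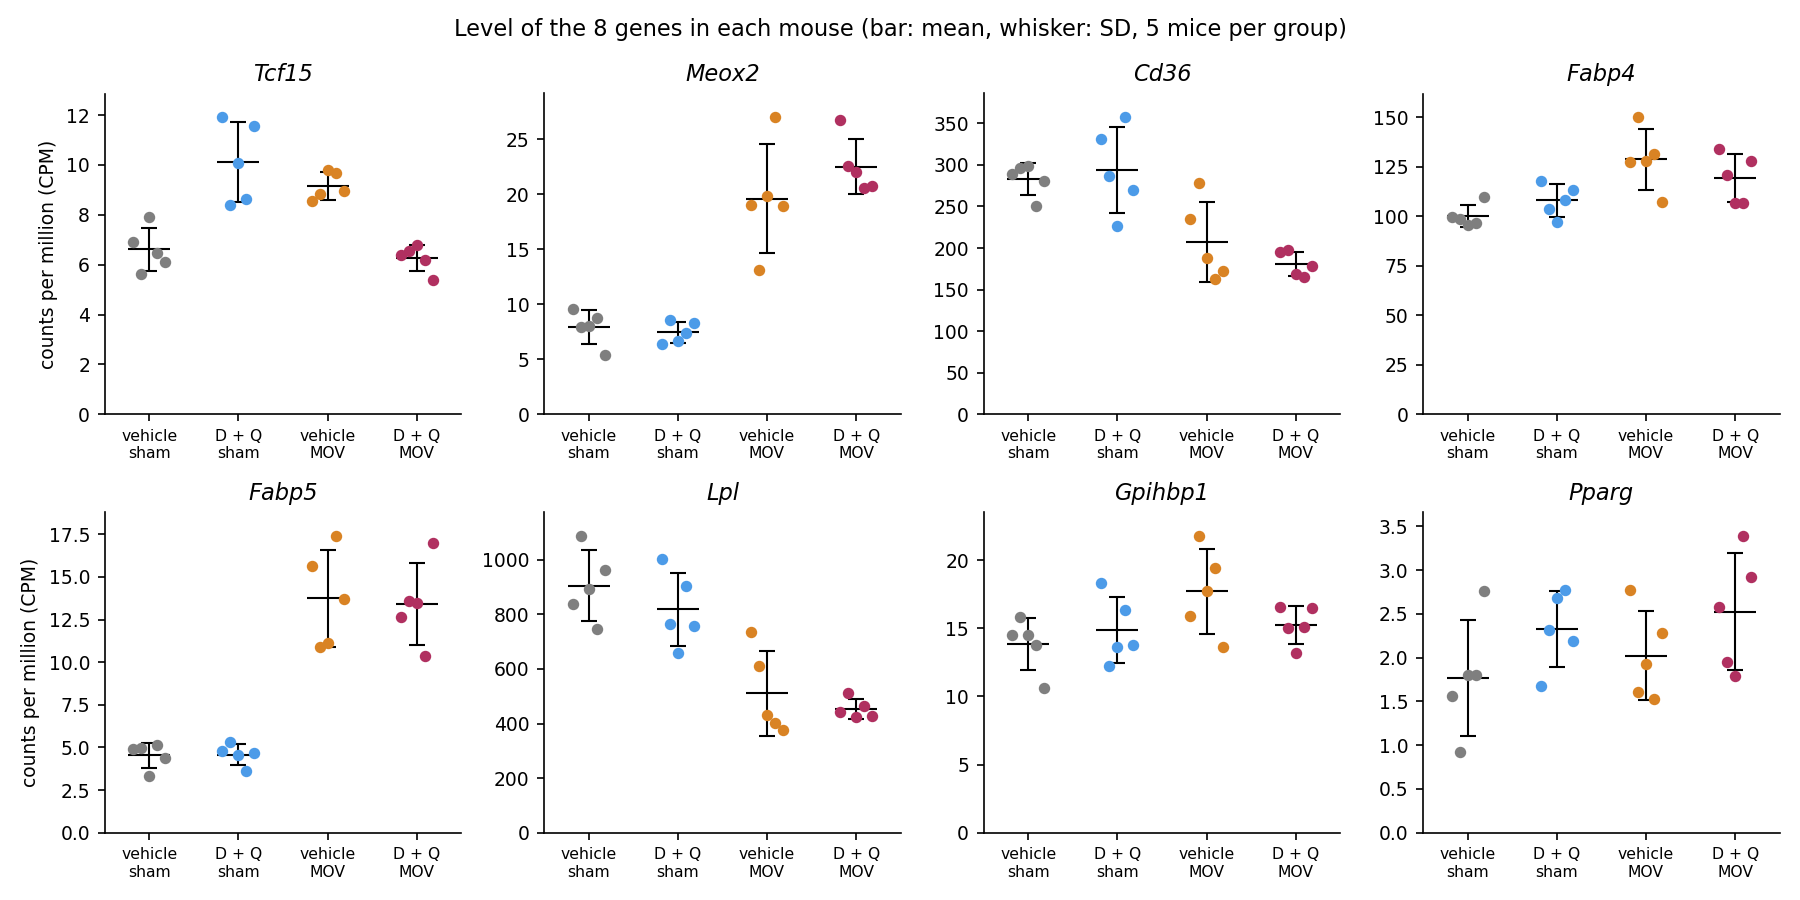
CPM of each of the 8 genes (vertical axis) in each mouse (points) of the 4 groups (horizontal axis), with the group mean and SD. Tcf15 is high in D + Q sham and vehicle MOV and low in vehicle sham and D + Q MOV, while Meox2 and Fabp5 are higher in all MOV mice than in all sham mice.

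As a description, the log2 fold change of Tcf15 with overload was 0.48 ± 0.12 with vehicle (0.52 and 0.48 without vehicle MOV replicate 2 and 4) and -0.65 ± 0.12 with D + Q. With D + Q it was 0.61 ± 0.13 in sham muscle and -0.55 ± 0.10 in MOV muscle. Scaled by total counts, the overload values were 0.86 and -0.28. The interaction, which chose the gene, was -1.16 ± 0.16, and was -1.19 and -1.14 without vehicle MOV replicates 2 and 4. Of 15700 genes in that contrast 0.0127% passed the threshold, which are Tcf15, whose place there is what chose it and is no test, and Sgk1, a serum- and glucocorticoid-regulated kinase named after its value (1.25 ± 0.18) was seen. With a block for replicate number no gene with a positive interaction passed (edgeR), so the call of Sgk1 was lost. The contrast of overload over both treatments is orthogonal to the interaction in this balanced design, and there Tcf15 was tested. Both contrasts come from the same fit and share its estimate of spread, so this test is only approximately free of the choice. The log2 fold change of Tcf15, -0.11 ± 0.08, did not pass (edgeR adjusted p = 0.224). This value turned with the scaling. With total counts alone it was 0.29 (edgeR adjusted p = 0.00408, against 0.124 to 0.409 under the other alternatives), while the median log2 fold change of all genes moved from -0.01 to 0.39. Total counts alone moved that median to 0.36 for overload with vehicle and 0.39 with D + Q as well.

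Meox2 rose with overload in both treatments. Sham mice had 9.57, 7.94, 7.99, 8.73 and 5.41 CPM with vehicle and 6.35, 8.52, 6.63, 7.38 and 8.30 CPM with D + Q. MOV mice had 19.1, 13.1, 19.8, 27.0 and 18.9 CPM with vehicle and 26.7, 22.6, 22.0, 20.5 and 20.7 CPM with D + Q. No MOV mouse reached down to a sham mouse, and the lowest MOV value was that of vehicle MOV replicate 2. The log2 fold change was 1.31 ± 0.18 with vehicle (edgeR adjusted p = 3.89e-05) and 1.65 ± 0.10 with D + Q (edgeR adjusted p = 4.1e-10). Without vehicle MOV replicates 2 and 4 the former was 1.45 and 1.19. In sham muscle D + Q against vehicle gave -0.11 ± 0.14, and in MOV muscle 0.19 ± 0.15, neither of which passed (edgeR adjusted p = 0.845 and 0.701). Leaving out each mouse gave -0.22 to -0.03 in sham muscle, and in MOV muscle 0.08 (without vehicle MOV replicate 2) to 0.33 (without replicate 4).

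Pparg was the lowest of the 8 genes per transcript length. It ranged from 0.92 to 2.77 CPM in vehicle sham, 1.68 to 2.77 in D + Q sham, 1.53 to 2.77 in vehicle MOV and 1.79 to 3.39 CPM in D + Q MOV, so the groups overlapped throughout. It did not pass in any of the 6 comparisons, with log2 fold changes of 0.21 ± 0.28 and 0.16 ± 0.22 for overload with vehicle and with D + Q. Leaving out each mouse gave 0.05 to 0.43 with vehicle (0.31 and 0.32 without vehicle MOV replicate 2 and 4) and 0.05 to 0.27 with D + Q. With total counts alone it passed with D + Q, at 0.52, and over both treatments, at 0.55.

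Of the lipase and its carrier, Lpl fell with overload in both treatments. Lpl was at 837, 1088, 894, 745 and 964 CPM in vehicle sham and at 1002, 766, 660, 905 and 758 CPM in D + Q sham. It was at 735, 612, 430, 401 and 375 CPM in vehicle MOV and at 441, 510, 423, 463 and 427 CPM in D + Q MOV. The MOV and sham mice did not overlap within a treatment, although vehicle MOV replicates 1 and 2 lay well above the other 3 of their group. Lpl fell by 0.81 ± 0.18 on the log2 scale with vehicle (edgeR adjusted p = 0.00236) and by 0.81 ± 0.10 with D + Q (edgeR adjusted p = 2.86e-06). Without vehicle MOV replicate 2 and 4 the vehicle value was -0.86 and -0.72. With total counts alone it was -0.44 and no longer passed, while the D + Q value was -0.44 and passed.

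Gpihbp1, the endothelial protein that holds the lipase, rose by a small amount with vehicle. It was at 14.5, 15.8, 14.5, 13.7 and 10.7 CPM in vehicle sham and at 18.3, 12.2, 13.6, 16.3 and 13.8 CPM in D + Q sham. In vehicle MOV it was at 15.9, 21.8, 17.8, 19.4 and 13.6 CPM, and in D + Q MOV at 16.6, 15.0, 13.2, 15.1 and 16.5 CPM. Sham and MOV mice overlapped in both treatments, with the highest value in vehicle MOV replicate 2. The log2 fold change with overload was 0.36 ± 0.13 with vehicle, which passed (edgeR adjusted p = 0.0247), and 0.09 ± 0.11 with D + Q, which did not (edgeR adjusted p = 0.495). On leaving out each mouse the D + Q value ran from 0.02 to 0.17. Scaled by total counts, the values were 0.74 with vehicle, 0.45 with D + Q and 0.60 over both treatments, and each passed. The difference between the treatments was not called (interaction -0.31 ± 0.17, edgeR adjusted p = 0.862). Without vehicle sham replicate 5, the lowest mouse, the vehicle value was 0.28 and did not pass, while it was 0.30 and 0.34, and passed, without vehicle MOV replicate 2 and 4. Over both treatments Gpihbp1 passed narrowly, at 0.19 ± 0.09 (edgeR adjusted p = 0.0489), and the call was lost on leaving out any of 14 mice, with values of 0.15 to 0.20. Those mice were vehicle sham 1, 3, 4 and 5, D + Q sham 2, 3 and 5, vehicle MOV 2, 3 and 4, and D + Q MOV 1, 2, 4 and 5.

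Among the fatty acid transport genes, Cd36 fell, Fabp5 rose and Fabp4 rose by less. Cd36, the fatty acid translocase, was at 289, 296, 299, 250 and 281 CPM in vehicle sham and at 331, 286, 227, 357 and 269 CPM in D + Q sham. In vehicle MOV it was at 235, 278, 188, 163 and 173 CPM, and in D + Q MOV at 195, 197, 169, 166 and 178 CPM. Vehicle MOV replicate 2 lay inside the vehicle sham range, while with D + Q the groups did not overlap. Cd36 fell by 0.44 ± 0.13 on the log2 scale with vehicle (edgeR adjusted p = 0.00997) and by 0.65 ± 0.11 with D + Q (edgeR adjusted p = 0.000111). Without vehicle MOV replicate 2 and 4 the vehicle value was -0.54 and -0.34. With total counts alone the vehicle value was -0.07 and the value over both treatments -0.18, and neither passed, while the D + Q value was -0.29 and passed.

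Fabp5, a fatty acid binding protein also found in macrophages, was at 4.92, 4.95, 3.35, 5.12 and 4.36 CPM in vehicle sham and at 4.78, 5.29, 4.53, 3.64 and 4.68 CPM in D + Q sham. It was at 15.6, 10.9, 11.1, 17.4 and 13.7 CPM in vehicle MOV and at 12.7, 13.6, 13.5, 10.4 and 17.0 CPM in D + Q MOV. All 10 MOV mice lay above all 10 sham mice. The log2 fold change was 1.61 ± 0.16 with vehicle (edgeR adjusted p = 7.04e-07) and 1.60 ± 0.13 with D + Q (edgeR adjusted p = 1.25e-08). The vehicle value was 1.70 and 1.52 without vehicle MOV replicate 2 and 4. A processed pseudogene, Fabp5l2, is annotated, and how the counting treated reads shared with it is not given in the sources used here.

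Fabp4, the fatty acid binding protein of endothelial and fat cells, was at 99.8, 98.7, 95.7, 96.6 and 109.9 CPM in vehicle sham and at 118, 104, 96.9, 108 and 113 CPM in D + Q sham. In vehicle MOV it was at 127, 150.1, 128, 131 and 107 CPM, and in D + Q MOV at 134, 121, 107, 107 and 128 CPM. Sham and MOV mice overlapped in both treatments. The log2 fold change was 0.38 ± 0.08 with vehicle (edgeR adjusted p = 0.00104) and 0.19 ± 0.07 with D + Q (edgeR adjusted p = 0.0288). The vehicle value was 0.34 and 0.38 without vehicle MOV replicate 2 and 4. Scaled by total counts, the values were 0.75 with vehicle and 0.56 with D + Q. The D + Q call was lost without D + Q sham replicate 2 or 3 or D + Q MOV replicate 1 or 5, with values of 0.15 to 0.18, and with all 20 mice in 1 fit, at 0.14.

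Shares of the whole table called in each comparison stand beside the members' counts. Of the 7 genes other than Tcf15, 6 were called for overload with vehicle, where 60.5% of 14601 genes were called. Of these, 4 were higher and 2 lower in MOV, against 30.7% and 29.8% of all genes. For overload with D + Q, 5 of 7 were called against 65.3% of 14913 genes, 3 of them higher (34.4% of all genes) and 2 lower (30.9%). Over both treatments 6 of 8 were called against 72.8% of 15700 genes, 4 higher (36.5%) and 2 lower (36.3%). Total counts alone split the 11727 genes then called over both treatments into 9695 higher and 2032 lower, in place of 5730 and 5695 with TMM, and called 4 of 7, 7 of 7 and 7 of 8 members in these comparisons. Its split was 7683 higher and 1453 lower with vehicle, and 8392 and 1654 with D + Q, in place of 4482 and 4349, and 5129 and 4614.

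For D + Q against vehicle, 0 of 7 genes were called by edgeR in sham muscle, where 0.215% of 13926 genes were called, and 0 of 7 in MOV muscle, where the share was 0%. None of the 7 had an unadjusted p under 0.05 in either comparison, and DESeq2 called 0 in both, giving no adjusted p for Pparg in sham muscle. For all genes in MOV muscle edgeR called 0 of 15238, with 1340 at an unadjusted p under 0.05, and DESeq2 called 11. For all genes in sham muscle edgeR called 30, with 2 to 74 on leaving out each mouse, and DESeq2 called 133. In the interaction 0 of the 7 were called by edgeR or DESeq2 and 0 had an unadjusted p under 0.05, beside 0.0127% of 15700 genes. The nearest were Fabp4 at -0.22 ± 0.11 and Gpihbp1 at -0.31 ± 0.17 (edgeR adjusted p = 0.855 and 0.862).

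**Figure D2:**
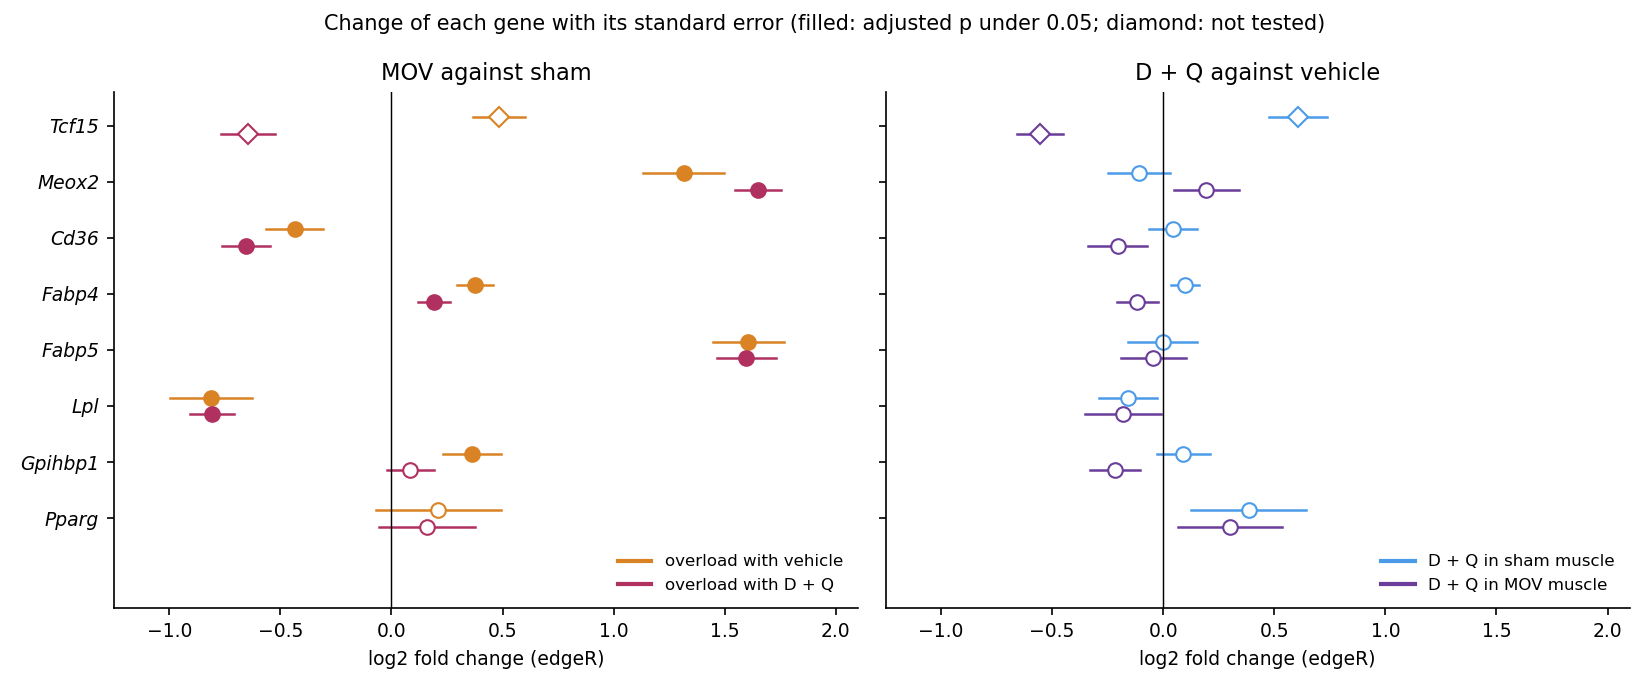
Log2 fold change ± SE (horizontal axis) of each gene for MOV against sham in each treatment (left) and for D + Q against vehicle in each kind of muscle (right), with filled points at an adjusted p under 0.05 and diamonds for Tcf15, which was not tested in these. Tcf15 lies on opposite sides of 0 within each panel, while none of the other 7 genes is filled on the right.

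Per length of the canonical transcript, which allows levels to be compared between genes, vehicle sham muscle held 220 ± 31.5 CPM per kb of Lpl, 80.7 ± 5.60 of Cd36 and 73.6 ± 4.20 of Fabp4 (SD, n = 5). Gpihbp1 followed at 16.7 ± 2.33, Tcf15 at 6.63 ± 0.87, Fabp5 at 4.57 ± 0.73, Meox2 at 3.35 ± 0.66 and Pparg at 0.65 ± 0.24 CPM per kb. The SDs of Cd36 and Fabp4 overlapped, and the transcription factors and Fabp5 lay below the other 4 genes. In vehicle MOV muscle Fabp4, at 94.7 ± 11.2, stood above Cd36, at 59.2 ± 13.8, and Meox2, at 8.28 ± 2.09, was near Tcf15, at 9.18 ± 0.55 CPM per kb.

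The promoters of Meox2 and Cd36 are shown because Tcf15 belongs to the factors that bind E-boxes, and because these 2 genes moved in opposite directions with overload. Of the 8 genes, 3 (Meox2, Cd36 and Pparg) matched a promoter in the RefSeq table (GRCm38.p6, 250 bases before to 50 after the start), and Tcf15, Fabp4, Fabp5, Lpl and Gpihbp1 did not. The Meox2 promoter is at chr12:37108290-37108589 on the + strand and the Cd36 promoter at chr5:17835847-17836146 on the - strand. Capitals mark the E-box, CANNTG, which reads the same on both strands.
Meox2: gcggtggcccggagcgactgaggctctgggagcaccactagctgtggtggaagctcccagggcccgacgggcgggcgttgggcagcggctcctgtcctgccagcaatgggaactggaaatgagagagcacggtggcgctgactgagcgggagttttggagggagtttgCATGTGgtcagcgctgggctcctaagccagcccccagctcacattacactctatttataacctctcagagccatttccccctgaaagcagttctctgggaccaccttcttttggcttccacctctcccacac
Cd36: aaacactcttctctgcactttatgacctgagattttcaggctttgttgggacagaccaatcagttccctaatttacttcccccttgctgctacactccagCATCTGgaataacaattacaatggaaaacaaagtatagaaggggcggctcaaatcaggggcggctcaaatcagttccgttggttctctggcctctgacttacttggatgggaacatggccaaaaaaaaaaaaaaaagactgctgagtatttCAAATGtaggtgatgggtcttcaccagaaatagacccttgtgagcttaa
Meox2 held 1 match (CATGTG) and Cd36 held 2 (CATCTG and CAAATG), while the 3 Pparg promoters held 0, 1 and 1. Of all 32851 promoters of this length, 72.31% held at least 1, so a match is a description and not a site.

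Endothelial markers rose with overload too, and bulk RNA cannot tell fewer or more cells of a type from less or more RNA per cell. Over both treatments 14 of 16 pan-endothelial markers rose and 2 did not pass (edgeR), with a median log2 fold change of 0.63, against 36.5% of all genes higher, 36.3% lower and a median of -0.01. Scaled by total counts, 16 of 16 rose, with a median of 1.03. Sox18, an endothelial transcription factor, rose by 1.17 ± 0.14 on the log2 scale, from 5.05 and 7.94 CPM in vehicle and D + Q sham to 14.9 and 13.5 CPM in the MOV groups. Eng, a TGF-beta co-receptor, went from 21.5 and 29.9 CPM in vehicle and D + Q sham to 46.6 and 44.0 CPM in the MOV groups, and Pecam1, an endothelial adhesion protein, from 37.3 and 42.6 to 70.6 and 67.3 CPM. The mean of the list was 3.73 ± 0.12 log2 CPM in vehicle sham, 3.98 ± 0.19 in D + Q sham, 4.47 ± 0.09 in vehicle MOV and 4.44 ± 0.14 in D + Q MOV (SD, n = 5). Its summed level had medians of 277, 325, 454 and 443 CPM in these groups, and the most abundant gene was Ptprb in sham (38.8 and 48.8 CPM) and Pecam1 in MOV. In the interaction the median of these markers was -0.22, and that of the capillary markers -0.38, against -0.01 for all genes. No marker of these lists was called there (0 of 16 and 0 of 8), beside 0.0127% of all genes. Both medians lay on the same side of 0 as Tcf15, as did those of arterial (-0.20), venous (-0.18) and pericyte markers (-0.16). So did those of fibro-adipogenic progenitor (-0.10), muscle fibre (-0.07) and lymphatic markers (-0.005), so that side was not particular to vessel markers. Those of adipocyte (0.19), satellite cell (0.14) and macrophage markers (0.06) lay on the other side. The mean of the capillary markers was 4.55 ± 0.23 log2 CPM in vehicle MOV and 4.32 ± 0.08 in D + Q MOV. Their part in the values of Tcf15 was not tested.

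Of 8 capillary markers, 3 rose and 3 fell over both treatments, with a median of 0.05, which is near the 36.5% higher and 36.3% lower of all genes. With total counts alone 6 rose and 1 fell, with a median of 0.45. Aplnr, the apelin receptor, rose by 2.703 ± 0.13 on the log2 scale, Plvap, of endothelial diaphragms, by 1.71 ± 0.10 and Rgcc by 1.68 ± 0.16, while Timp4, a metalloproteinase inhibitor, fell by 1.33 ± 0.20. The summed level had medians of 242, 260, 406 and 355 CPM in vehicle and D + Q sham, then in vehicle and D + Q MOV. Aqp1, a water channel, was at 141, 142, 147 and 128 CPM in the same order and was the most abundant in sham, where Rgcc was in MOV, at 186 and 132 CPM. No pan-endothelial or capillary marker was at 0 counts in every mouse of a group.

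Relative to the mean of the pan-endothelial markers in the same mouse, Tcf15 was, as a description, at -0.997 ± 0.16 log2 units in vehicle sham, -0.65 ± 0.22 in D + Q sham, -1.26 ± 0.13 in vehicle MOV and -1.78 ± 0.23 in D + Q MOV (SD, n = 5). Vehicle MOV mice ran from -1.445 to -1.124 and vehicle sham mice from -1.114 to -0.729. Tcf15 was thus lower in MOV in both treatments on this scale, unlike in CPM. The MOV minus sham difference was -0.26 with vehicle and -1.13 with D + Q. With D + Q the same difference was 1.13 for Meox2, 1.06 for Fabp5, -1.30 for Lpl, -1.14 for Cd36, -0.41 for Gpihbp1 and -0.32 for Fabp4. Each of those 6 reached the smallest exact two-sided permutation p that 252 divisions of 10 mice allow (p = 0.00794, 0.0123 after Benjamini-Hochberg over the 14 tests run), and Pparg did not pass. The reference itself rose with overload, by 0.74 log2 units with vehicle and 0.46 with D + Q. A gene unchanged in CPM is thus lower on this scale. Only the members were tested on it, so no share of all genes stands beside these counts. By edgeR, 60.5% of all genes were called for overload with vehicle and 65.3% with D + Q.

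With vehicle, the difference was -1.60 for Lpl, -1.21 for Cd36, -0.38 for Fabp4 and 0.83 for Fabp5, and these 4 passed (exact permutation p = 0.00794 for all but Fabp4, p = 0.0159; 0.0123 and 0.0222 adjusted). Meox2, at 0.55, and Gpihbp1, at -0.39, missed the threshold after adjustment (exact permutation p = 0.0397 and 0.0476; 0.0505 and 0.0556 adjusted). Without vehicle MOV replicate 2 both passed, at 0.69 and -0.46, and Gpihbp1 did so without vehicle sham replicate 5, at -0.49. With capillary markers as the reference Fabp4 no longer passed with vehicle, at -0.30. Fabp4 therefore rose with vehicle in CPM and was lower in MOV relative to endothelial markers, which themselves rose.

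**Figure D3:**
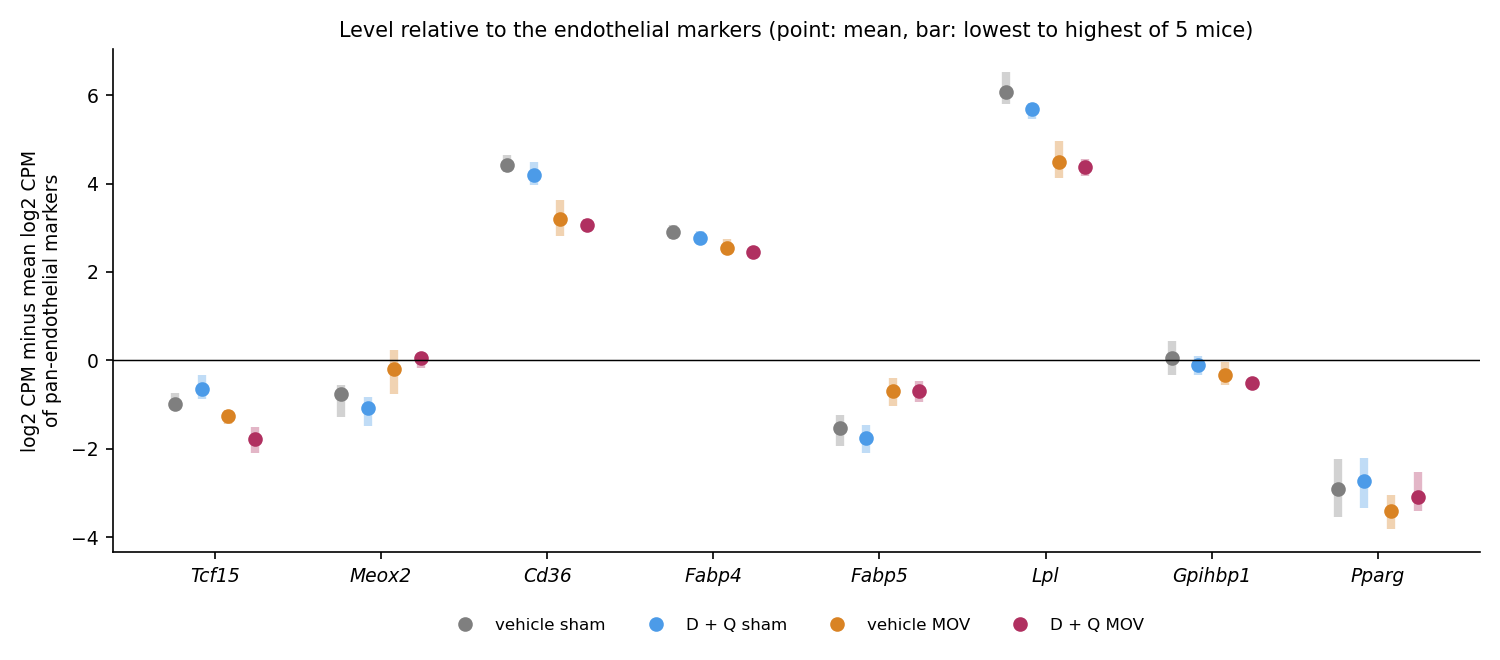
Log2 CPM of each gene minus the mean log2 CPM of the 16 pan-endothelial markers (vertical axis) in the 4 groups, with the mean as a point and the lowest to highest of 5 mice as a bar. Lpl and Cd36 are lower in MOV than in sham, Fabp5 is higher, and Tcf15 is lowest in D + Q MOV.

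Markers of other cells that express these genes moved with overload as well, where 72.8% of all genes were called over both treatments, 36.5% higher and 36.3% lower. All 11 macrophage markers rose over both treatments, with a median of 2.72 (edgeR), and their summed level went from medians of 98.3 and 112.8 CPM in vehicle and D + Q sham to 583.7 and 724.6 CPM in the MOV groups. Adgre1, the F4/80 antigen, rose by 3.40 ± 0.25 on the log2 scale, and Lyz2 was the most abundant, at 44.0 and 49.5 CPM in sham and 263.6 and 308.6 CPM in MOV. Of 9 adipocyte markers 7 were tested and 7 fell, with a median of -1.42 (5 fell, with a median of -1.03, with total counts alone), and their summed median went from 30.4 and 26.3 to 14.4 and 15.4 CPM, Cfd being the most abundant. Fabp5 and Pparg are also expressed by macrophages, and Lpl, Cd36, Fabp4 and Pparg by fat cells. This account is not complete, and other members may be expressed by macrophages too. The part of macrophages and fat cells in the changes above was not tested.

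For muscle fibre, stromal and vessel markers the share of all genes over both treatments was again 36.5% higher and 36.3% lower. Of 8 muscle fibre markers, 5 fell and 1 rose over both treatments, with a median of -0.48, and with total counts alone 4 fell and 4 rose, with a median of -0.08. Myh4, the fast type 2b myosin, fell by 1.57 ± 0.07. It was the most abundant of the list except in vehicle MOV, where Acta1 was, at 22540 against 19710 CPM. All 8 fibro-adipogenic progenitor markers rose, with a median of 1.86, led by Col1a1 at 5.31 ± 0.22. Lpl is made in muscle fibres, and other members, Cd36 among them, may be too. What the share of muscle fibres had to do with the falls of Lpl and Cd36 was not tested. Arterial markers rose in 3 of 6, venous in 3 of 5 with 1 fall, lymphatic in 4 of 4, pericyte in 3 of 6 with 2 falls, and satellite cell markers in 4 of 5. Scaled by total counts, 6, 4, 4, 4 and 4 of them rose in that order.

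**Figure D4:**
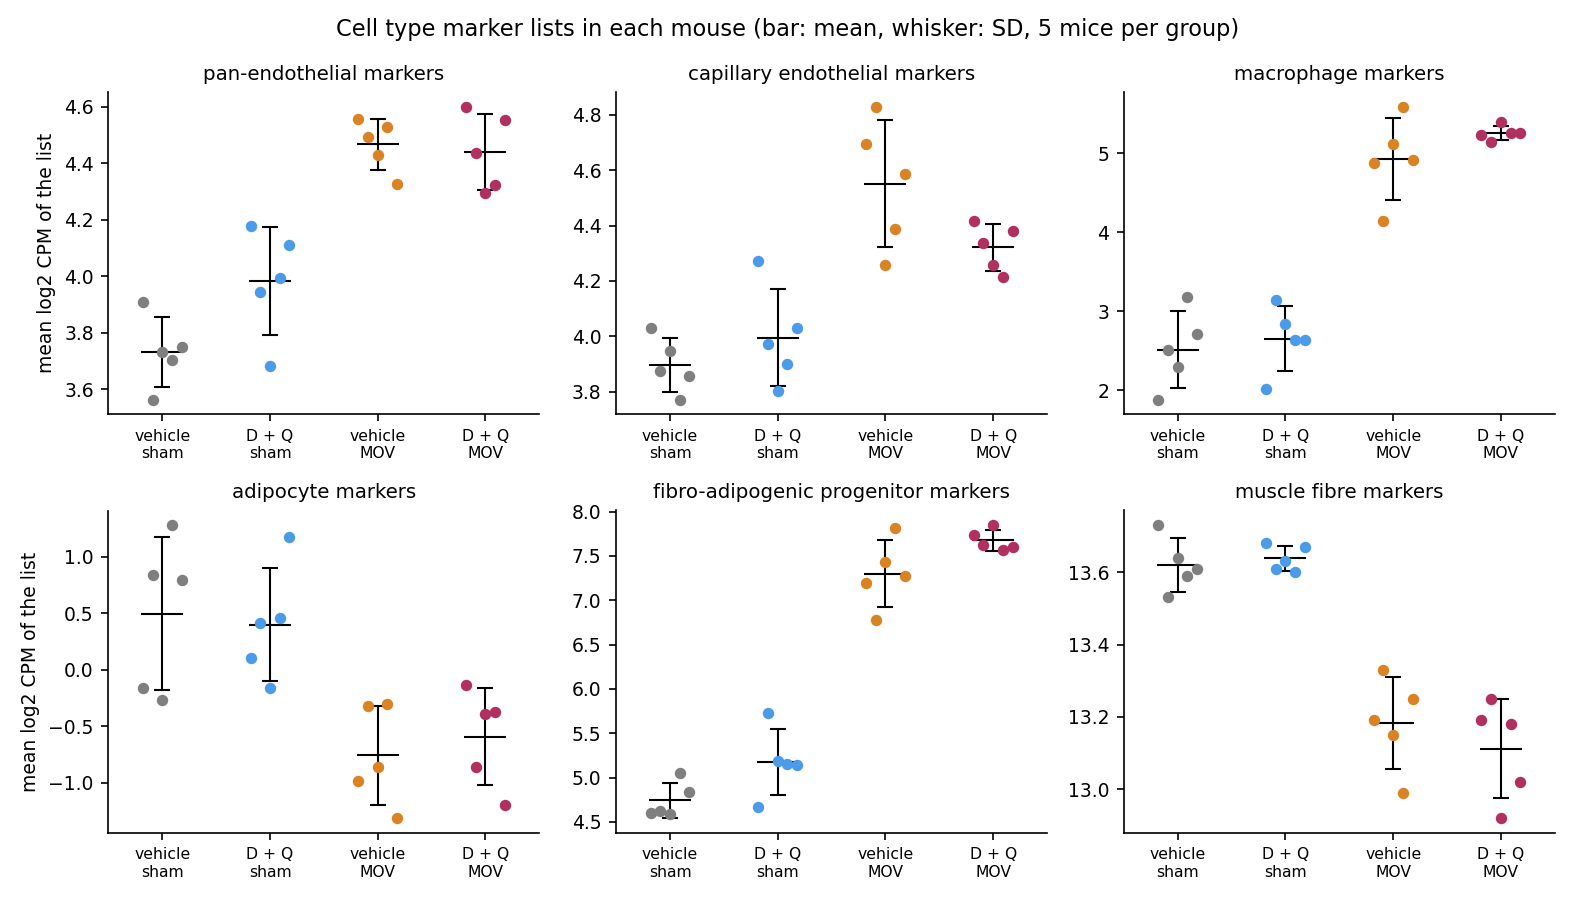
Mean log2 CPM (vertical axis) of 6 lists of cell type markers in each mouse (points) of the 4 groups, with the group mean and SD. In group mean, endothelial, macrophage and fibro-adipogenic progenitor markers are higher in MOV, and adipocyte markers lower. With D + Q, sham and MOV mice overlap for capillary and adipocyte markers. Muscle fibre markers are lower in MOV with TMM, while their median log2 fold change with vehicle was 0.01 with total counts alone.

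Of 13 listed relatives and dimer partners of Tcf15, 12 were in the table (Tcf21 was not) and 12 of 12 rose over both treatments, with a median log2 fold change of 1.62. Of all genes 36.5% were higher, with a median of -0.01. Meox1, the closest relative of Meox2, went from 1.30 ± 0.17 and 2.62 ± 0.70 CPM in vehicle and D + Q sham to 8.97 ± 2.81 and 9.46 ± 2.91 CPM in the MOV groups (log2 fold change 2.31 ± 0.17, edgeR adjusted p = 1.13e-11). Msc and Twist1, basic helix-loop-helix factors of muscle and mesenchyme, rose by 2.60 ± 0.20 and 2.07 ± 0.13, and Id4, of the inhibitors that dimerise with such factors without binding DNA, by 2.20 ± 0.21.

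Of the wider set of endothelial lipid delivery genes, 12 of 25 tested were higher and 8 lower over both treatments, with a median of 0.23 (16, 5 and 0.64 with total counts alone). Of all genes 72.8% were called, 36.5% higher and 36.3% lower. Apln, the apelin ligand, rose by 2.90 ± 0.28 on the log2 scale, its receptor Aplnr (also on the capillary list) by 2.703 ± 0.13 and Slc27a3, of the fatty acid transport protein family, by 1.68 ± 0.16, while Vldlr, a lipoprotein receptor, fell by 1.35 ± 0.07, from 545.6 and 522.2 CPM in sham to 206.9 and 212.2 CPM in MOV. Of the fatty acid handling genes of muscle fibres most fell, with 13 of 16 genes lower, 2 higher and a median of -0.59. Plin5 and Plin4, lipid droplet coat proteins, fell by 1.44 ± 0.19 and 1.16 ± 0.16, Slc27a1, a fatty acid transporter, by 1.24 ± 0.11 and Acsl6, an acyl-CoA synthetase, by 0.87 ± 0.07. With total counts alone 10 of the 16 were lower and 3 higher, with a median of -0.19. Of the Fabp family, 5 of 10 members were in the table and 3 passed the count minimum, of which Fabp4 and Fabp5 rose over both treatments and 1 fell, though not with total counts alone.

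Across mice, no relation of Tcf15 with the other 7 genes passed the test. After the group means were subtracted, Pearson r with Meox2 over 20 mice was 0.15 (permutation p = 0.535, adjusted 0.658 over 7 relations) and Spearman rho 0.19 (permutation p = 0.455), and r was 0.25 without the 2 mice farthest in Tcf15. The other 6 genes had r from -0.25 for Fabp5 to 0.15 for Gpihbp1 and rho from -0.41 for Pparg to 0.08 for Gpihbp1. Without the 2 mice farthest in Tcf15 the r of Fabp5 was 0.00115 and that of Gpihbp1 -0.00131, so these rest on those mice, and the r of Cd36, Lpl, Pparg and Fabp4 was -0.25, -0.24, -0.31 and 0.00584. On leaving out each mouse the r of Gpihbp1 ran from -0.0239 to 0.28 and that of Fabp4 from -0.14 to 0.0806. On leaving out each mouse the r of Pparg ran from -0.58 to -0.12. That of Fabp5 ran from -0.43 to -0.05 and that of Lpl from -0.35 to -0.07. The r of Cd36 ran from -0.29 to -0.02 and that of Meox2 from 0.07 to 0.27. None passed, with a smallest permutation p of 0.093, for the rho of Pparg (0.651 adjusted).

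By the same within-group measure, and as a description, the genes most like Tcf15 among 15699 were Frk (r = 0.85), Gm20878 (0.80), Zfp180 (0.76), Triobp (0.73) and Klhl5 (0.72). Frk, a kinase of the Src group, was at 0.34 and 0.59 CPM in sham and 2.48 and 3.02 CPM in MOV, so its group means did not have the shape of Tcf15. By the shape of the 4 group means, the nearest of 13200 genes were Xab2, Pgap3, Ndufaf2, Dach1 and Fcf1, with distances of 0.04 to 0.09. Xab2 had 15.0 ± 1.16, 15.5 ± 1.36, 15.4 ± 1.56 and 14.9 ± 0.82 CPM in vehicle and D + Q sham, then in vehicle and D + Q MOV. That likeness is one of shape and not of size, with means that differed by less than the SD. Of the other 7 genes Gpihbp1 was nearest in shape, at 1.07, and Meox2 farthest, at 1.60.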

How the data were processed

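Whole plantaris RNA was sequenced in 20 mice. The deposited values are estimated counts per gene, which the authors made by aligning reads to GRCm39 with STAR 2.7.8a and counting with the expectation-maximisation tool of Partek Flow, keeping genes with at least 10 counts. They were rounded to whole numbers. Each pairwise comparison was fitted on its own 10 mice, and overload over both treatments and the interaction on all 20, with edgeR 4.0.16 (R 4.3.3) quasi-likelihood tests, TMM scaling, at least 10 counts in 5 mice and Benjamini-Hochberg adjustment over all genes tested at 0.05, two-sided. The fits were tested on simulated data, and the outcome is not given here. CPM used TMM factors of all 20 mice, and log2 CPM a prior count of 2. Correlations used 100000 permutations of mice within groups. Lengths came from GENCODE. Members and lists were chosen with earlier results of these data known. Named list genes came from the up to 4 per list with the largest change, adjusted p under 0.05 and groups that did not overlap, and the most abundant gene of a list is named for its level. Alternatives were DESeq2 1.42.0, other scalings, count minimums, a replicate block, 1 fit of all mice, other markers or prior counts, and leaving out each mouse.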

Additional observations from a re-analysis of the deposited data

Results flagged for a closer look

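Of 32 sets of 5 mice (8 genes in 4 groups), 1 held a mouse far from the others. Fabp4 in vehicle sham was at 109.9 CPM in replicate 5, with the next mouse at 99.8 CPM, a gap of 0.711 of the range of the group. Chance flags about 1 in 20 groups. The effect of D + Q on Tcf15 differed between sham and MOV muscle, with an interaction of -1.163 on the log2 scale. Tcf15 was chosen by this value, so it is given as a description.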

How the results depend on the processing

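Of 1445 values recomputed under alternatives, 1372 kept their direction and their side of the threshold (or, with no test, moved by under 1 SD). Over the 6 comparisons the number of genes called among the 8 stayed within 1.5 times, at 5 to 6 (vehicle), 4 to 5 (D + Q) and 5 to 6 (both treatments) on leaving out each mouse, and 4, 7 and 7 with total counts alone. The Tcf15 interaction ran from -1.23 to -1.10 on leaving out each mouse. Changes of direction were near 0 and not called, but for Tcf15 in overload over both treatments (0.29 with total counts alone, -0.14 to -0.08 on leaving out each mouse). With total counts alone Fabp5 was at 0.00348 for D + Q in MOV and 0.0332 in sham muscle, and Lpl at 0.00306 in the interaction. Fabp5 in sham muscle was also at 0.00076 with no count minimum, 0.0032 with a minimum of 50 counts, 0.00468 with the replicate block and 0.00567 with all 20 mice in 1 fit, and Lpl at 0.0118 in the interaction with the block. On leaving out each mouse, D + Q in MOV gave Fabp5 -0.14 to 0.0467, D + Q in sham gave Cd36 -0.0321 to 0.13, Fabp5 -0.0896 to 0.0726 and Gpihbp1 -0.000884 to 0.15, and the interaction gave Fabp5 -0.14 to 0.0567, Lpl -0.12 to 0.14 and Pparg -0.30 to 0.0753. The r of Tcf15 with Fabp4 was 0.0854 with total counts alone and -0.14 to 0.0806 on leaving out each mouse, and that with Gpihbp1 -0.0239 to 0.28. The cause was not tested. Genes called for D + Q in sham muscle numbered 30, against 133 with DESeq2, 67 with no count minimum, 49 with total counts, 19 in 1 fit of all mice and 2 to 74 on leaving out each mouse. Replicate numbers did not pair the mice: deviations of same-numbered mice had a median r of -0.006, and 5 of 20 mice correlated best with their own number. The replicate block gave 19 genes for D + Q in sham, 2 in MOV (0 without it) and 1 in the interaction (2 without it, Sgk1 being lost), and no gene of the 8 changed its call. Pparg was at 0.92 to 3.39 CPM, and whether depth or the spread between mice limits its precision was not tested.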

Other observations

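Endoglin and ephrin A1 were among the 5 genes with the smallest p in the interaction, though neither was called by edgeR, and both are named with their values already known. The others were Tcf15, Sgk1 and Gm15443. Sgk1 and Gm15443 had the opposite sign to Tcf15. Gm15443 was at 2.52 ± 0.56 and not called, with group means of 0.21 to 0.63 CPM. Eng had an interaction of -0.55 ± 0.12 and Efna1 of -0.77 ± 0.18 on the log2 scale. Efna1 was at 8.19 CPM in vehicle sham, 10.3 in D + Q sham, 9.21 in vehicle MOV and 6.82 CPM in D + Q MOV, the same order of groups as Tcf15. Eng was at 21.5, 29.9, 46.6 and 44.0 CPM in these groups, a different order, with both MOV means above both sham means.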
